A study of Bos taurus with 20 samples.

Results

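The cornified envelope is the protein and lipid shell that replaces the plasma membrane of keratinocytes at the end of their life in the epidermis. Keratinocytes leave the basal layer, switch to the suprabasal keratins, make envelope precursors and barrier lipids, and are finally shed when proteases cut the corneodesmosomes that hold them together. The 8 genes described here stand for these steps: LORICRIN, IVL and CSTA for the envelope, CDSN for the corneodesmosome, KRT1 and KRT10 for the suprabasal filaments, SPINK5 for the control of the shedding proteases and ELOVL4 for the barrier lipids. They were taken by name, among 15352 gene names on the array, from probes whose gene name or description in the deposited files gave the gene. They were not chosen by a threshold on the values, but they and the gene lists below were chosen with earlier results of these data known. The shares of all probes given beside them are therefore descriptions and not independent tests. Where a gene had several probes the brightest was used.

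RNA came from skin biopsies of cattle that held epidermis, dermis and connective tissue. The biopsies were from the site of horn growth in 4 polled (hornless), 4 scurred (with small loose horns) and 3 horned animals, and, in polled replicate 3 and scurred replicate 2, from a control site on the skull as well. The polled animals were 1 male and 3 females, the scurred animals 3 males and 1 female, and the horned animals 2 males and 1 female, and their ages are not given in the sources used here. All 20 arrays carried 2 dyes: each of chips 1 to 4 joined a polled, a scurred and a horned animal, horned replicate 2 served on chips 2 and 4, and chip 5 set horn site against control site. Replicates 1 to 4 of polled and scurred animals are numbered by chip.

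The array read each gene with a 60-base oligonucleotide. Of 11 probes for the 8 genes, 8 were used. They are named here by the accession in the files: XM_581398 for LORICRIN, XM_870769 for IVL, XM_869305 for CSTA, XM_600631 for CDSN, XM_867348 for KRT1, NM_174377 for KRT10, BM435878 for SPINK5 and XM_610522 for ELOVL4. The oligonucleotides of KRT1, CSTA and IVL are shown because the first was the dimmest, the second separated polled from horned animals, and the third takes its name from the description alone, since its accession matched no entry of the reference table. The KRT1 and SPINK5 probes used also took their names from their descriptions. They are written 5′ to 3′ as in the deposited files, with capitals in the KRT1 oligonucleotide for the motif GGNGGN, whose frame-wise reading gives pairs of glycine codons.
KRT1: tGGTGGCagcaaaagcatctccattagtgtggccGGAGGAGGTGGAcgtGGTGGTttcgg
CSTA: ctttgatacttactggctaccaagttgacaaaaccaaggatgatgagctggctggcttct
IVL: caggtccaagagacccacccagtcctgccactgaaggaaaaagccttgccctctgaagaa
The KRT1 oligonucleotide held 4 matches to GGNGGN that do not overlap, and those of the other 7 genes held 0 on the strand given. The motif occurs on either strand in 29.3% of the 21475 probes, and a match describes these letters only. The longest run of bases that any of the 8 oligonucleotides shared, on the same strand, with any other probe of the array was 15. By the RefSeq table for assembly ARS-UCD2.0, LORICRIN and IVL lie on the same chromosome with 7 protein-coding genes between them, and the other 6 genes lie elsewhere.

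Between 62.2% and 73.7% of the spots of an array were well above background, and no member spot was saturated or left out. LORICRIN, CSTA, CDSN, KRT10, SPINK5 and ELOVL4 were well above background in 11 of 11 animals, IVL in 9 and KRT1 in 7. Scurred replicate 1 stood apart from the other animals, with a mean correlation of 0.922 across probes, where the other 10 animals had 0.949 to 0.965. It was scanned on chip 1, on another day than the other chips. Polled replicate 1 and horned replicate 1 of the same chip had 0.957 and 0.951, and the part of the scan day was not tested. Basal keratinocyte markers passed the filter, which asks for 3 of 11 animals well above background, for 11 of 11 listed genes.

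Levels below are log2 intensities of 1 probe and are not comparable between genes. Between animals they compare the same gene only approximately, and they can depart from the chip-wise differences given further below. For IVL, scurred replicate 1 had 11.61 and horned replicate 1 had 7.09, where their chip-wise difference was 3.36. LORICRIN at the horn site of polled replicate 3 had 7.78 on chip 3 and 8.58 on chip 5. LORICRIN, the main protein of the envelope by mass, had levels of 12.86, 11.63, 7.78 and 11.37 in polled replicates 1 to 4. In scurred replicates 1 to 4 it had 15.96, 13.84, 7.02 and 8.01, and in horned replicates 1 to 3 it had 9.5, 8.84 and 6.90. Polled replicate 3 and scurred replicates 3 and 4 lay within the range of the horned animals, and the other 5 hornless or scurred animals lay above it.

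IVL encodes involucrin, an early scaffold of the envelope. Its levels were 7.31, 7.93, 6.72 and 7.17 in polled animals and 11.61, 6.78, 6.63 and 6.73 in scurred animals, against 7.09, 6.77 and 6.58 in horned animals. Scurred replicate 1 was far above the others, and the remaining 10 animals lay between 6.58 and 7.93, with overlap of the 3 groups.

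CSTA encodes cystatin A, a cysteine protease inhibitor that is cross-linked into the envelope. It had levels of 10.59, 10.79, 8.39 and 10.18 in polled animals, of 13.37, 11.52, 8.28 and 7.01 in scurred animals and of 6.91, 7.40 and 7.25 in horned animals. The 4 polled animals lay above the 3 horned animals with no overlap, and 3 of the 4 scurred animals did as well.

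CDSN encodes corneodesmosin, the glue of the corneodesmosome. Its levels were 9.47, 9.10, 6.86 and 8.76 in polled animals, 10.70, 10.25, 6.86 and 7.27 in scurred animals and 7.61, 7.59 and 6.80 in horned animals. The animals inside the horned range were the same as for LORICRIN.

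KRT10 and KRT1 encode the acidic and the basic partner of the suprabasal keratin filament. KRT10 had levels of 17.10, 15.02, 11.28 and 14.77 in polled animals, of 17.82, 17.55, 11.47 and 10.81 in scurred animals and of 9.68, 13.78 and 11.33 in horned animals. KRT1 had levels of 7.94, 6.46, 6.38 and 6.51 in polled animals, of 8.53, 7.87, 6.33 and 6.40 in scurred animals and of 6.71, 6.52 and 6.41 in horned animals. Polled replicate 1 and scurred replicates 1 and 2 were highest for both keratins. In polled replicate 3, scurred replicates 3 and 4 and horned replicate 3, no KRT1 spot was well above background, so the lowest KRT1 levels have no order.

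SPINK5 encodes LEKTI, the inhibitor of the kallikreins that cut corneodesmosomes. Its levels were 11.85, 13.38, 10.46 and 12.43 in polled animals, 13.17, 13.31, 9.06 and 8.74 in scurred animals and 8.13, 9.01 and 9.07 in horned animals. ELOVL4 encodes an elongase that makes the very long fatty acids of barrier ceramides. Its levels were 10.60, 13.76, 11.58 and 12.71 in polled animals, 13.02, 13.23, 8.35 and 8.88 in scurred animals and 7.80, 9.81 and 7.90 in horned animals. For both genes the 4 polled animals lay above the 3 horned animals, while the scurred animals formed a high pair, replicates 1 and 2, and a pair within the horned range, replicates 3 and 4.

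**Figure D1:**
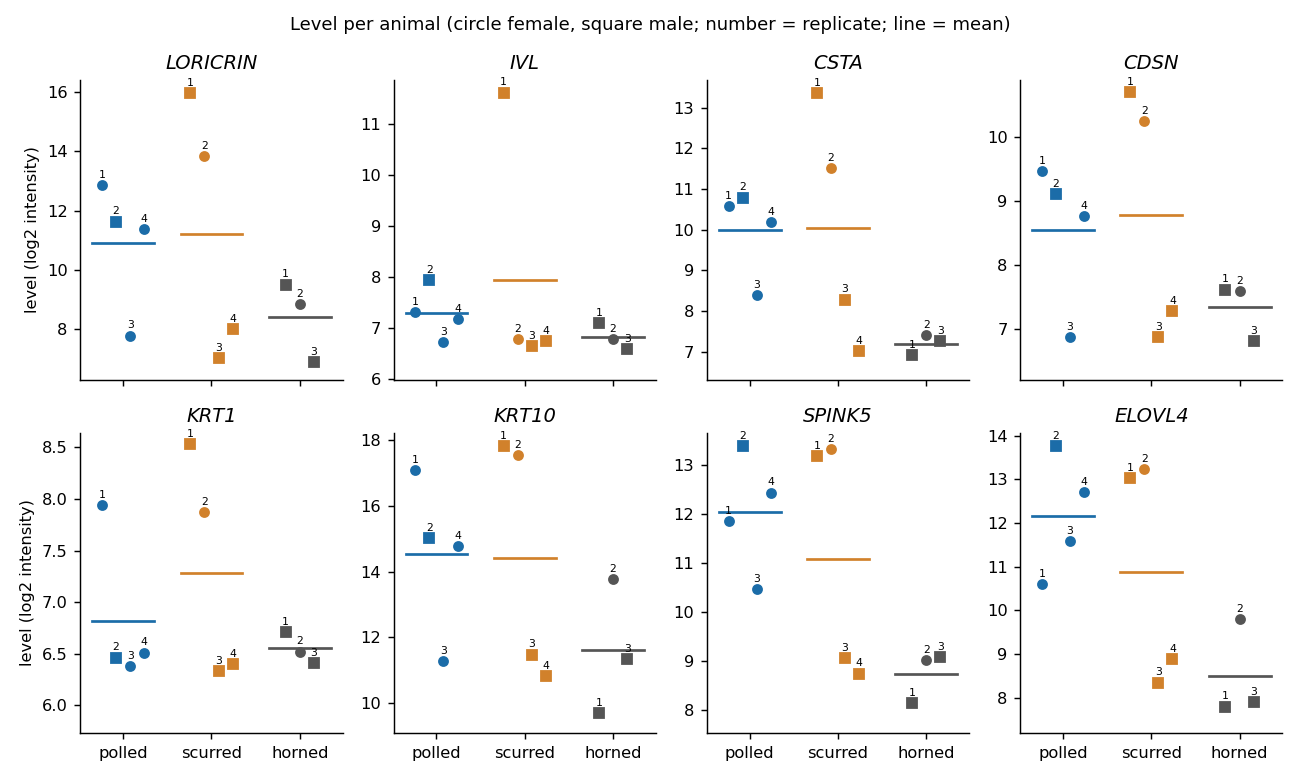
Level of each of the 8 genes (log2 intensity of 1 probe) in 4 polled, 4 scurred and 3 horned animals; each point is 1 animal, circles are females, squares are males, the number is the replicate and the line is the group mean. CSTA, SPINK5 and ELOVL4 have all 4 polled animals above the 3 horned animals, and scurred replicate 1 is the highest animal for 6 of the 8 genes.

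The 8 genes varied far more between animals than most of the array. The range over the 11 animals was 9.06 log2 units for LORICRIN, 8.14 for KRT10, 6.46 for CSTA, 5.96 for ELOVL4, 5.26 for SPINK5, 5.04 for IVL, 3.90 for CDSN and 2.20 for KRT1. A range of at least 4 log2 units, which is 16-fold, was reached by 6 of the 8 genes and by 2.1% of the 15712 probes tested. Within scurred animals the SD was 4.37 for LORICRIN and 3.79 for KRT10, larger than the difference between any of the group means of these genes. Group means of LORICRIN were 10.91 ± 2.19 in polled, 11.21 ± 4.37 in scurred and 8.42 ± 1.35 in horned animals (SD, n = 4, 4 and 3). For SPINK5 the order of the means was polled, 12.03 ± 1.22, scurred, 11.07 ± 2.51, and horned, 8.74 ± 0.53, and for ELOVL4 it was polled, 12.16 ± 1.37, scurred, 10.87 ± 2.61, and horned, 8.50 ± 1.13. Polled and scurred means of each of the 8 genes differed by less than the SD of the scurred animals.

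The question of the polled against horned comparison is which genes differ at the site of horn growth between hornless and horned cattle. All 8 genes had a positive fitted difference, and 7 of them, all but KRT1, were higher in the polled than in the horned animal on 4 of 4 chips. That was so for 14.2% of all probes. On chip 3 the differences of IVL, CDSN and KRT10 were 0.15, 0.11 and 0.11 log2. These were smaller than the median gap between dye orders, 0.20, so their direction there is uncertain. For KRT10 on chip 3 the sign depended on the dye order, with −0.35 when polled RNA was in Cy5 and 0.40 when it was in Cy3. The differences of SPINK5 from the horned animal of the chip were 3.75, 4.17, 1.39 and 3.55 log2 on chips 1 to 4, and those of ELOVL4 were 2.83, 4.03, 3.70 and 2.86. For CSTA they were 3.73, 3.24, 1.16 and 2.76, and for LORICRIN 3.60, 2.68, 1.10 and 2.52. By their brightest probe, these 4 genes were at least 1 log2 unit higher on every one of chips 1 to 4, as were 0.611% of all probes. The other tested ELOVL4 probe did not reach this, with 0.53 on chip 1 and 0.62 on chip 3. Because biopsies mix cell types, a larger share of late keratinocytes and more RNA of these genes per cell cannot be told apart.

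The other genes differed less evenly. KRT10 had differences of 7.61, 1.40, 0.11 and 0.91 log2 on chips 1 to 4, so chip 1 carried most of its mean. CDSN had 1.96, 1.38, 0.11 and 1.19, and IVL had 0.30, 1.21, 0.15 and 0.35. KRT1 had 1.25 on chip 1 and −0.10, −0.04 and 0.01 on chips 2 to 4. Chip 3 gave the smallest difference for 6 of these 8 genes, with ELOVL4 and KRT1 as the exceptions. Its median over the 8 genes was 0.63, against 3.22, 2.04 and 1.85 on chips 1, 2 and 4. Polled and horned animals of the same sex met on chip 4 alone, where the 8 genes had differences of 0.01 to 3.55 and a median of 1.85.

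**Figure D2:**
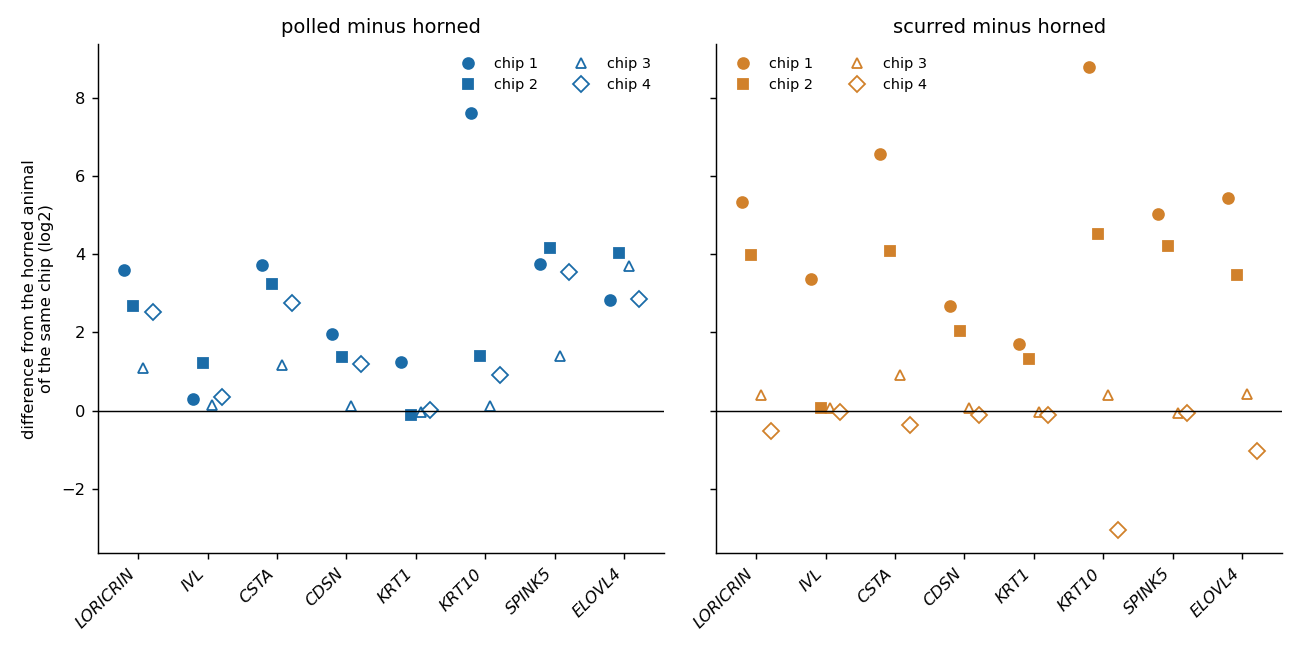
Difference of each of the 8 genes from the horned animal on the same chip (log2, vertical axis), for the polled animal in the left panel and the scurred animal in the right panel; each symbol is 1 chip, filled for chips 1 and 2 and open for chips 3 and 4. In scurred animals the 2 filled symbols lie above the 2 open ones for 7 of 8 genes; IVL has 0.06 on both chip 2 and chip 3.

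None of the 8 genes passed the test in the polled against horned comparison, a limma fit on the chip-wise differences with terms for horn type and sex, adjusted over all probes by Benjamini and Hochberg with a threshold of 0.05. A probe or gene past that threshold is said to be called. That fit called 0.00636% of probes, 1 of 15712, and 9.3% had an unadjusted p under 0.05, as did 1 of the 8 genes, SPINK5. The fitted difference of ELOVL4 was 3.25 log2 (SE 1.45, adjusted p = 0.548 by limma) and that of SPINK5 was 3.02 (SE 1.26, adjusted p = 0.533 by limma). CSTA had 2.60 (SE 1.39), LORICRIN 2.21 (SE 1.22), KRT10 2.06 (SE 2.06), CDSN 1.04 (SE 0.626), IVL 0.80 (SE 0.741) and KRT1 0.11 (SE 0.363), with adjusted p between 0.589 and 0.945. The 95% interval of ELOVL4 ran from −0.17 to 6.66, so it covered both 0 and a difference of many fold. The median over the 8 genes was 2.13, beside 0.012 over all probes. Without polled replicate 2, the only polled male, that median was 0.46, and KRT10 and KRT1 had fitted differences of −0.93 and −0.33. SPINK5 then had 1.45, ELOVL4 1.22, CSTA 0.85 and LORICRIN 0.65. All polled animals left in that fit were female, so these values also depend on its sex term. Not adjusted for sex, the remaining chips 1, 3 and 4 had medians of 3.22, 0.63 and 1.85, and KRT10 had 7.61, 0.11 and 0.91. With the mean over all probes of a gene in place of the brightest, which brings in 2 probes not well above background in any animal, SPINK5 had 1.5 and ELOVL4 1.45.

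Scurred animals split into pairs. On chips 1 and 2 the scurred animal had higher levels than the horned animal for 8 of 8 genes, with medians of 5.18 and 3.73 log2, while on chips 3 and 4 the medians were 0.23 and −0.25. CSTA had differences of 6.55, 4.09, 0.91 and −0.37, LORICRIN of 5.33, 3.99, 0.39 and −0.52 and KRT10 of 8.78, 4.52, 0.40 and −3.05 on chips 1 to 4. SPINK5 had 5.04, 4.20, −0.06 and −0.05, and ELOVL4 had 5.44, 3.47, 0.44 and −1.04. CDSN had 2.68, 2.03, 0.08 and −0.12, KRT1 had 1.70, 1.31, −0.04 and −0.12, and IVL had 3.36 on chip 1 and between −0.03 and 0.06 on the others. No gene of the 8 was higher on 4 of 4 chips, as 8.49% of all probes were. Scurred replicates 1, 3 and 4 were males and replicate 2 a female, and on chips 1, 2 and 3 the scurred and horned animal shared their sex.

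The levels come from the same arrays and show the same split, so they are not separate support for it. Scurred replicates 1 and 2 were both above the highest horned animal for 7 of the 8 genes, IVL being the exception, and this held for 9.85% of all probes. Scurred replicate 1 had the highest level of the 11 animals for 6 of the 8 genes, against 20.7% of all probes, and polled replicate 2 had it for SPINK5 and ELOVL4. All 4 scurred animals were above the highest horned animal for 0 of the 8 genes, against 1.96% of all probes. For polled animals the corresponding count was 3 of the 8 genes (CSTA, SPINK5 and ELOVL4), against 4.78% of all probes. At least 3 of the 4 polled animals were above the highest horned animal for 7 of the 8 genes, all but KRT1, against 16.1% of all probes.

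In the scurred against horned fit the 8 genes had positive differences with a median of 2.26, beside 0.006 over all probes, and each had an adjusted p of 1 by limma. KRT10 had 3.36 log2 (SE 1.96), CSTA 2.94 (SE 1.32), LORICRIN 2.46 (SE 1.16), SPINK5 2.27 (SE 1.2), ELOVL4 2.25 (SE 1.38), CDSN 1.22 (SE 0.596), IVL 0.86 (SE 0.706) and KRT1 0.84 (SE 0.346). The fit called 0% of all probes, and 3.73% had an unadjusted p under 0.05, among them KRT1 of the 8 genes. Without scurred replicate 1 the median was 1.07, IVL had a fitted difference of −0.07, and the other 7 genes had 0.62 to 1.93. With the mean over all probes of a gene, SPINK5 had 1.15 and ELOVL4 0.89, and the median was 1.19. Without chip 1, the chip of the other scan day, the median was 1.04.

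Scurred and polled animals were set against each other on the same chips. The differences of LORICRIN were 1.72, 1.31, −0.72 and −3.05 log2 on chips 1 to 4, those of KRT10 were 1.16, 3.11, 0.29 and −3.96, and those of CSTA were 2.82, 0.85, −0.26 and −3.13. ELOVL4 had 2.61, −0.56, −3.26 and −3.90, and SPINK5 had 1.29, 0.03, −1.45 and −3.60. On chip 1 the scurred animal was higher for 8 of 8 genes, and on chip 4 it was lower for 8 of 8. The fitted differences were −1 (SE 1.41) for ELOVL4, −0.75 (SE 1.23) for SPINK5 and between 0.05 and 1.30 for the other 6 genes, with adjusted p of 0.844 to 0.996 by limma. The 95% interval of LORICRIN, −2.54 to 3.04, covered differences as large as those from horned animals. Of all probes 0% were called, and 5.99% had an unadjusted p under 0.05, with 0 of the 8 genes among them. The direction of LORICRIN, IVL, CSTA and CDSN turned without scurred replicate 1, to −0.54, −0.69, −0.66 and −0.18, and the median over the 8 genes was then −0.60, against 0.21 with it. Leaving out polled replicate 2 gave a median of 1.37.

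Horn site was compared with control site, to see what sets the skin over the horn-forming region apart from skin elsewhere on the skull, in 1 polled and 1 scurred animal. The polled animal had lower levels at the horn site for 8 of 8 genes, and the scurred animal had higher levels there for 7 of 8, all but IVL. This pairing of signs, lower in polled replicate 3 and higher in scurred replicate 2, was found for 7 of the 8 genes and for 25% of the 15290 probes tested. KRT10 had levels of 11.01 at the horn site and 15.45 at the control site of polled replicate 3, a difference of −4.44 log2, and 17.59 at the horn site and 13.67 at the control site of scurred replicate 2, a difference of 3.92. LORICRIN had 8.58 at the horn site against 11.25 at the control site in the polled animal, and 13.80 against 12.87 in the scurred animal. CSTA had 8.42 at the horn site against 10.17 at the control site in the polled animal, and 11.64 against 10.98 in the scurred animal.

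The remaining genes followed with smaller values. The horn site minus control site difference of SPINK5 was −1.27 in the polled and 0.26 in the scurred animal, that of CDSN −1.10 and 0.42, that of ELOVL4 −0.48 and 0.27, and that of KRT1 −0.19 and 0.96. KRT1 was not well above background in every RNA of chip 5. IVL was lower at the horn site in both animals, by −0.21 in the polled and −0.31 in the scurred animal. Polled replicate 3 is the polled animal whose horn site had the lowest level of 7 of the 8 genes within its group, ELOVL4 being the exception. KRT1 had no spot well above background in this animal on chips 1 to 4, so its place in that count is uncertain. The control site of polled replicate 3 had LORICRIN and KRT10 levels on chip 5 of 11.25 and 15.45. Chip 5 levels were scaled together with those of chips 1 to 4 but averaged separately. Across both animals the fitted differences ran from −0.86 for LORICRIN to 0.39 for KRT1, with a median of −0.30 beside −0.009 over all probes and adjusted p from 0.962 to 1 by limma. The fit called 0% of probes, 4.71% had an unadjusted p under 0.05, and 0 of the 8 genes did. With 1 animal of each horn type, the opposite signs in polled and scurred skin were not tested.

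**Figure D3:**
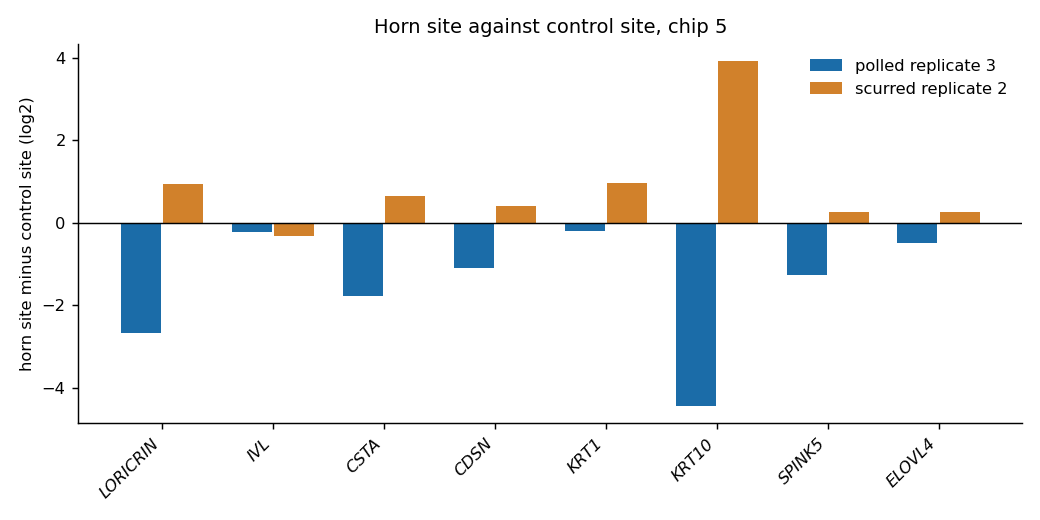
Horn site minus control site (log2, vertical axis) for each of the 8 genes in polled replicate 3 (left bar) and scurred replicate 2 (right bar); each bar is the mean of 2 arrays with exchanged dyes of 1 animal. The polled bars lie below 0 for 8 of 8 genes and the scurred bars above 0 for 7 of 8, with KRT10 the widest apart at −4.44 and 3.92.

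The polled against horned and the site contrasts were each measured in both dye orders. Over 32 such contrasts of polled against horned animals, the 8 genes on chips 1 to 4, the sign was the same in both orders in 30, with KRT10 on chip 3 and KRT1 on chip 2 as the exceptions, and the median gap between orders was 0.20 log2, with 0.75 as the largest. Sex had a fitted difference, male minus female, of −2.30 for KRT10, of 0.62 for IVL and in between for the other 6 genes, with an adjusted p of 1 for each by limma. SPINK5 and ELOVL4 had further probes. A second SPINK5 probe and a probe described as like ELOVL4 were not well above background in any animal, and their differences from horned animals stayed within 0.08 log2 of 0. The second SPINK5 probe took its name from a gene identifier in the reference table, and the brighter one from its description. The second ELOVL4 probe of the same accession gave 0.53, 2.30, 0.62 and 1 for polled minus horned on chips 1 to 4, the same sign as the brighter probe on 4 of 4 chips.

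Late epidermal genes beyond these 8 had mostly positive differences from horned animals. Of 121 listed genes, 79 had a named probe and 68 were tested, and 62 of these had a positive polled against horned difference, with a median of 0.72, beside 52.1% of all probes. In that fit 0 of the 68 passed the adjusted threshold, and 10 with positive and 1 with negative differences had an unadjusted p under 0.05. Of all probes, 9.3% had such a p in that fit. In the scurred against horned fit 65 of 68 were positive with a median of 0.63, beside 51.5% of all probes, and 0 passed. The 1 listed gene with an unadjusted p under 0.05 had a negative difference, where 3.73% of all probes had such a p. For scurred against polled 23 of 68 were positive (median −0.09), beside 48.3% of all probes. For horn site against control site 21 of 66 were positive (median −0.08), beside 47.6% of all probes, with 0 passing in either. Without polled replicate 2, 44 of the 68 were positive in the polled against horned fit. Many other genes of the envelope, among them FLG, HRNR and the LCE family, were not analysed here.

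By role, the 8 tested envelope and keratohyalin genes had a median polled against horned difference of 0.77, with 8 of 8 positive and 0 called. Examples were SBSN, a secreted protein of upper keratinocytes, with 1.82 log2 (SE 0.963), DMKN, another such secreted protein, with 1.64 (SE 0.865), and SPRR2G, a small proline-rich envelope protein, with 0.65 (SE 0.338). Among 18 cross-linking enzymes and proteases with their inhibitors 18 were positive (median 0.55, 0 called). KLK6, a kallikrein protease, had 2.90 (SE 1.37), ST14, the membrane protease matriptase, had 1.84 (SE 0.632), and TGM5, an epidermal transglutaminase, had 0.82 (SE 0.409). Barrier lipid genes were positive for 12 of 15 (median 0.75, 0 called), with LIPM, an epidermal lipase, at 1.96 (SE 0.773), ELOVL6, a fatty acid elongase, at 1.52 (SE 0.491) and SDR9C7, a dehydrogenase of barrier lipids, at 1.03 (SE 0.374).

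Suprabasal keratin and adhesion genes had the largest median of these lists, 1.36, with 10 of 10 positive and 0 called. GJB5, a gap junction gene, had 2.11 (SE 1.01). Among 17 regulators of late differentiation 14 were positive (median 0.72, 0 called). The transcription factors GRHL2 and EHF had 1.81 (SE 0.571) and 1.77 (SE 0.552). Adjusted p for these 12 named genes lay between 0.485 and 0.586 by limma.

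Basal keratinocyte markers, which mark cells that have not begun to differentiate, also had mostly positive differences from horned animals. In the polled against horned fit 10 of 11 basal markers were positive, beside 52.1% of all probes, with a median of 0.73 and 0 called. In the scurred against horned fit 10 of 11 basal markers were positive, beside 51.5% of all probes, with a median of 0.64. Their mean level relative to the average of the 11 animals was −0.11, 0.98, 0.11 and 0.71 in polled animals, 1.28, 0.83, −0.52 and −0.95 in scurred animals and −0.91, −0.49 and −0.93 in horned animals. The mean of the 8 genes on the same scale was 1.30, 1.34, −0.99 and 0.82 in polled animals, 3.35, 2.12, −1.67 and −1.69 in scurred animals and −1.74, −0.95 and −1.89 in horned animals. Both lists were high in scurred replicates 1 and 2 and low in scurred replicates 3 and 4, but polled replicates 1 and 3 had the reverse order in the 2 lists.

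Markers of dermis had negative differences in polled animals. The 8 fibroblast and matrix genes had a median polled against horned difference of −1.22, with 0 of 8 positive and 0 called, and 0.06 in the scurred against horned fit. Their mean level ranged from −1.56 to −0.22 in polled, from −0.64 to 0.68 in scurred and from 0.40 to 0.48 in horned animals. The part of basal and fibroblast markers in the values of the 8 genes was not tested. AIF1, a macrophage gene, was the 1 probe called in the polled against horned fit, at −1.71 log2 (SE 0.115, adjusted p = 0.0199 by limma), and 5 macrophage markers had a median of −0.50. Skeletal muscle markers had medians of 1.64 in polled against horned, 1.75 in scurred against horned and 2.49 in horn site against control site, with 8 of 8 positive in each and 0 called. Their mean levels ranged from −1.42 to 4.11 in polled, from −1.11 to 1.37 in scurred and from −3.59 to 1.55 in horned animals, and their part was likewise not tested.

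Lists of other cell types of skin had differences in the same fits, with 0 called in each. In polled against horned, the median was 2.62 for 2 red cell genes (2 positive), 1.60 for melanocyte genes (5 of 5), 1.37 for sebaceous genes (5 of 6), 1.14 for sweat gland and simple epithelium genes (6 of 6), 0.79 for T lymphocyte genes (3 of 3) and 0.50 for hair shaft and inner root sheath genes (8 of 9). An unadjusted p under 0.05 was reached by 2 of the red cell, 1 of the sebaceous, 4 of the sweat gland, 3 of the T lymphocyte and 5 of the hair genes, each with a positive difference. Of all probes, 9.3% reached it in that fit, and 52.1% had a positive difference. In scurred against horned, the same lists had medians of 3.15, 1.08, 0.36, 0.61, 0.81 and −0.11. Polled animals differed among themselves. Mean levels of the hair list were −0.32, 1.89, −0.60 and 0.91 in polled replicates 1 to 4 and −0.36, 0.04 and −0.31 in horned animals. Those of the sebaceous list were −0.88, 1.87, 0.48 and 0.76 in polled and −1.03, −0.18 and −0.73 in horned animals. Endothelial genes had medians of −0.33 in polled and −0.34 in scurred animals against horned animals, and smooth muscle genes −0.60 and −1.05. DCT of the melanocyte list and CD3D of the T lymphocyte list did not pass the filter, and the part of these cell types in the values of the 8 genes was not tested.

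**Figure D4:**
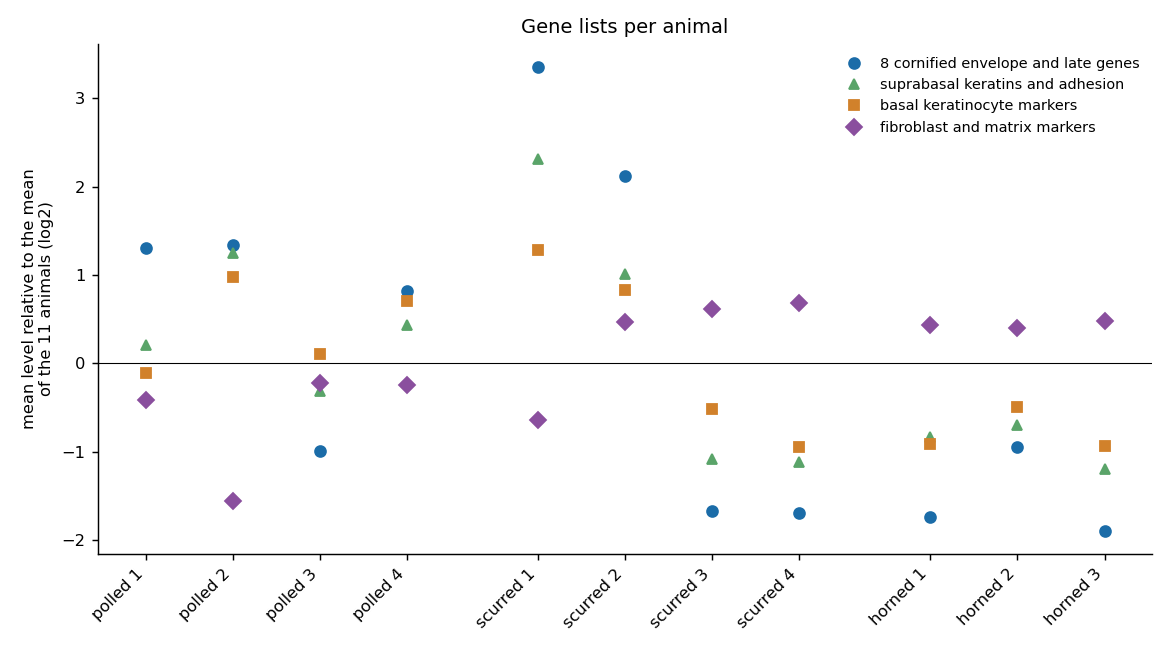
Mean level relative to the average of the 11 animals (log2, vertical axis) of the 8 cornified envelope and late genes, of 10 suprabasal keratin and adhesion genes, of 11 basal keratinocyte markers and of 8 fibroblast and matrix markers, for each polled, scurred and horned animal. The 8 genes reach 3.35 and 2.12 in scurred replicates 1 and 2 and lie between −1.89 and −0.95 in the 3 horned animals.

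Among the 8 genes, CSTA followed the mean of the other 7 most closely over the 11 animals (Pearson's r 0.972), followed by CDSN at 0.963, LORICRIN at 0.943, KRT10 at 0.915 and SPINK5 at 0.913. ELOVL4 had 0.808, KRT1 0.792 and IVL 0.654. These correlations are descriptions over animals that share chips and arrays. Of 12021 other gene symbols, the 10 closest to the mean of the 8 genes were KLK11, DMKN, COBL, GPLD1, SCNN1G, TMEM184A, DSG1, KLK7, AREG and KRT14, with r of 0.972 to 0.982, and of 0.956 to 0.978 without scurred replicate 1. DSG1, a desmosomal cadherin of the upper epidermis, had a range of 6.74 log2 units over the 11 animals, KRT14, the acidic keratin of basal cells, one of 6.10, and SCNN1G, a sodium channel subunit, one of 1.23. None of the 10 passed the polled against horned test, with adjusted p of 0.570 to 0.717 by limma, and DSG1 had a fitted difference of 2.87 log2 (SE 1.61).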

How the data were processed

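The deposited scanner files hold, a linear intensity for each spot and dye. They also hold processed intensities, which the scanner software had background-subtracted and dye-normalized per the file headers, and a log10 ratio. The submitters' processing notes list Agilent Feature Extraction 9.5.1. In the deposited series table the log10 ratios, converted here to log2, recur: 14 columns had slope 1 and 6 slope −1 against red over green, with medians from −0.019 to 0.00971.

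Here normexp (offset 50) and within-array loess were applied to the mean intensities with limma 3.58.1 (R 4.3.3, with version 1.17.8 of data.table). Flagged spots were dropped and duplicates averaged. Probes entered a test if a share of at least 0.5 of their spots was well above background in 3 of 11 animals, or in 2 of 4 RNAs of chip 5. The model took the 8 differences from each chip's horned animal, by generalized least squares, with coefficients for horn type and sex (5 residual degrees of freedom, two-sided moderated test). The site fit used 1 value for each of the 2 animals. Levels are separate-channel log2 intensities after Aquantile scaling, averaged over dyes. Levels and chip-wise differences are not adjusted for sex. Alternatives changed the normalization, the filter, the probes per gene, the sex and chip terms, and left out animals and chips. The fits were tested on simulated data. The chip is a block because arrays pair the animals by hybridisation. Correlations between the residual profiles of polled and scurred animals on 1 chip, after removing each group's mean, were 0.239, 0.284, 0.426 and −0.0777. The mean correlations of the same polled animals with scurred animals of the other chips were −0.133, −0.13, −0.0708 and 0.056. Levels of animals on 1 chip also come from shared arrays, so these values do not test the block.

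The 8 genes and all lists were chosen with earlier results of these data known. Named list genes are those past the threshold and, per late epidermal list, the 3 with the lowest p in polled against horned, plus the 10 symbols closest to the 8 genes. The results of 3 list genes that this rule names are not reported here. Gene names come from identifiers, accessions and descriptions in the files and from RefSeq, and no genome was used. The number of arrays and animals limits the precision.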

Additional observations from a re-analysis of the deposited data

Results flagged for a closer look

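In groups of 4 animals, 4 of 32 sets of values held 1 animal far from the rest, where chance flags about 1 in 20 independent sets. These were 2 animals, each seen in both the level and the difference of 1 gene, so the sets are not independent and their count was not set against chance. IVL had a level of 11.61 and a difference from the horned animal of 3.36 log2 in scurred replicate 1. KRT1 had a level of 7.94 and a difference of 1.25 in polled replicate 1. For 7 genes the horn site minus control site difference had opposite signs in scurred replicate 2 and polled replicate 3, and the difference between those animals was not tested. Scurred minus polled, it was 8.37 for KRT10, 3.60 for LORICRIN, 2.42 for CSTA, 1.54 for SPINK5, 1.52 for CDSN, 1.14 for KRT1 and 0.75 for ELOVL4.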

How the results depend on the processing

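No gene of the 8 passed the threshold under any alternative that gave a test, and the lowest adjusted p by limma was 0.0775, for ELOVL4 in polled against horned (3.51 log2, from polled against horned arrays alone). The direction of LORICRIN, CSTA, CDSN, SPINK5 and ELOVL4 in polled against horned, and of all but IVL in scurred against horned, held under every alternative run. Agilent's processed signals, median centring, the series table, the fit with no replicate block and polled against horned arrays alone each called 0 probes in polled against horned, where 1 was called. Median centring called 1 probe in scurred against horned, and leaving out sex called 1 in scurred against polled. Scurred against polled turned for IVL with processed signals (−0.23), median centring (−0.04) and the series table (−0.27), for CDSN with median centring (−0.01) and for LORICRIN without the sex term (−0.18). KRT1 in polled against horned was −0.02 in the series table. Where probes had to be well above background in every RNA, 0 of the members left were higher at the horn site. The cause of these changes was not tested, except that KRT1 was not tested under that filter. Leaving out 1 animal or chip at a time, polled against horned ranged from −0.27 to 1.54 for IVL, −0.33 to 0.45 for KRT1 and −0.93 to 3.79 for KRT10. Its median ran from 0.46 (without polled replicate 2) to 3.24, with 5 to 8 genes positive and 0 to 1 probes called. Scurred against horned ranged from −0.10 to 1.40 for IVL, with 0 to 1 probes called. Its median ran from 1.04 (without chip 1) to 3.17. Scurred against polled ranged from −0.92 to 2.16 for LORICRIN, −0.69 to 1.67 for IVL, −0.70 to 2.48 for CSTA, −0.42 to 1.13 for CDSN, −0.15 to 4.96 for KRT10, −2.09 to 1.18 for SPINK5 and −2.20 to 1.48 for ELOVL4. Its median ran from −0.60 to 1.37, with 2 to 8 members and 13 to 62 listed late genes positive and 0 to 2 probes called. For horn site against control site, the values of 1 animal alone ran from −2.66 to 0.94 for LORICRIN, −1.76 to 0.66 for CSTA, −1.10 to 0.42 for CDSN, −0.19 to 0.96 for KRT1, −4.44 to 3.92 for KRT10, −1.27 to 0.26 for SPINK5 and −0.48 to 0.27 for ELOVL4. In those, 0 to 7 members and 22 to 36 listed late genes were positive. Levels of KRT1 and IVL near background limit their precision.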
